A study of Homo sapiens with 9 samples.

Results

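The RAB small GTPases of Cal-27 cells were described across 3 groups of RNA sequencing libraries. Every gene of the deposited table whose symbol is RAB followed by a number, with or without one letter and one more digit, was taken, which gave 60 genes of 16366 listed. Effectors and regulators whose symbols only begin with RAB, such as RAB11FIP1, were left out. Of the 60, 50 had enough counts to be tested, among 12470 tested genes in all.

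Cal-27 is an established human cell line of tongue squamous carcinoma, here labelled wild type, and all groups were cultured in a high-glucose medium to which fetal bovine serum was added. One group received exosomes from cancer-associated fibroblasts (CAF exosomes) in a 48 h co-culture. Another received, for the same time, exosomes labelled hOMF, which the labels also write hMOF and leave unexplained. The third was a control group, labelled normal control, whose own handling the labels do not describe further, so effects of the exosomes and of adding a preparation cannot be told apart. Exosomes are small vesicles that cells release. Each group held 3 libraries of poly(A) RNA, called replicate samples without mention of separate cultures. The p-values below therefore reflect the variation among these libraries alone, and that variation may be technical. 

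RAB proteins are membrane-bound switches. Guanine nucleotide exchange factors (GEFs) load them with GTP, GTPase-activating proteins (GAPs) turn them off, and in the GTP state they recruit effectors that move, tether and fuse vesicles. A lipid tail, added with the help of escort proteins, holds them in the membrane, and other proteins take them out again. Each RAB marks a certain compartment, so the members were grouped by textbook localisation into those of the endoplasmic reticulum (ER) and Golgi, which serve the early secretory pathway, those of secretory vesicles and the cell surface, and those of early, recycling and late endosomes. Members with none of these as a main site were kept as other. In epithelia and carcinomas RAB genes are studied for cell polarity, receptor recycling and the release of exosomes, for which RAB27A, RAB27B, RAB11 and RAB35 are best known.

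Expected counts summed to between 11185672 and 12779101 per library. The 9 squamous markers checked (KRT5, KRT14, TP63 and others) summed to between 2827 and 4281 FPKM in every library, and none was under 1 FPKM throughout. They summed to 2827 to 3596 FPKM in control, 4015 to 4281 with CAF exosomes and 3436 to 4112 with hOMF exosomes. Of 12 listed fibroblast markers, 7 were under 1 FPKM in all libraries (COL1A2, COL3A1, DCN, PDGFRB, THY1, FAP and POSTN). The fibroblast markers summed to 216 to 239 FPKM in control, 265 to 288 with CAF exosomes and 253 to 267 with hOMF exosomes, nearly all of it from the remaining ones. Of 6 tested, 2 were called higher and 0 lower by edgeR in each comparison with control (33.3%). Of the 9 squamous markers, 4 were called higher with CAF exosomes (44.4%) and 2 with hOMF exosomes (22.2%), and 0 lower in either. Over all tested genes 18.2% were called with CAF exosomes and 23.2% with hOMF exosomes. The part of these markers in the differences below was not tested. In bulk RNA, fewer cells of a kind and less RNA per cell cannot be told apart. Control replicate 3 stood apart in several scarcely expressed RAB genes, described at the end.

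The RAB genes spanned a wide range of levels. FPKM, fragments scaled by transcript length and library depth, is used to compare genes, since it accounts for length. RAB1B, which acts in transport from the ER to the Golgi, was the most abundant member, at 396, 422 and 425 FPKM in control replicates 1 to 3, 356, 381 and 421 with CAF exosomes and 384, 383 and 377 with hOMF exosomes. Its libraries overlapped between control and CAF exosomes but not between control and hOMF exosomes. RAB7A, which governs fusion of late endosomes with lysosomes, followed with a mean of 154 FPKM over all libraries, and RAB5C, an early endosomal member, with 150. RAB11B (118 FPKM), RAB34 (113 FPKM) and RAB25 (100.3 FPKM) came next, then RAB6A, RAB13 and RAB38. In all, 13 tested members had a mean of at least 50 FPKM. At the low end, RAB19 stood at 0.583 FPKM, RAB42 at 1.58 and RAB27B, one of the pair that docks exosome-bearing endosomes at the cell surface, at 2.01. Neighbours in this order, such as RAB7A and RAB5C, overlapped between libraries.

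**Figure D1:**
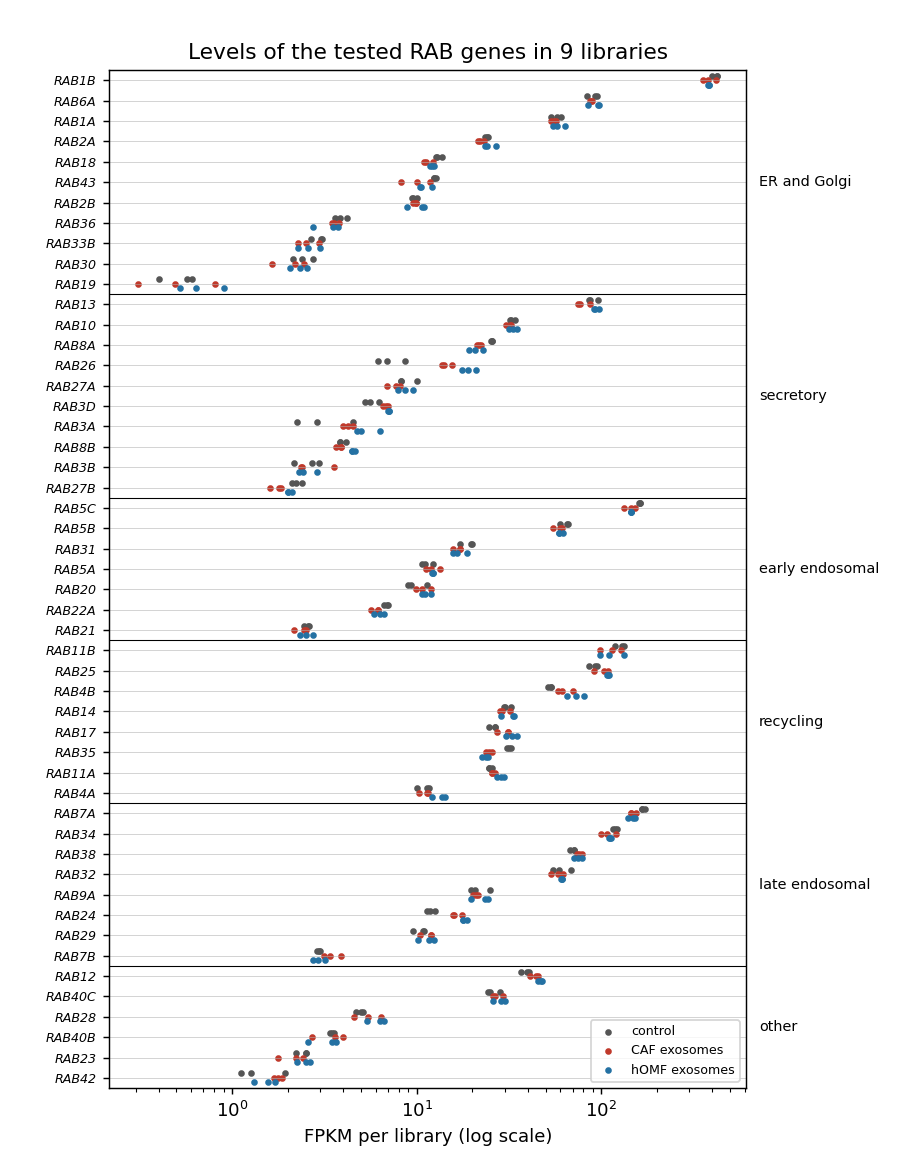
FPKM of the 50 tested RAB genes in each of the 9 libraries, on a log scale, one row a gene and one point a library, grouped by compartment and ordered by mean level. Levels differ far more between genes than between groups for one gene, and RAB26 is the member whose 3 groups lie farthest apart.

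With CAF exosomes, 2 of the 50 tested members were higher than in control and 4 were lower, by edgeR's quasi-likelihood test with Benjamini-Hochberg adjustment over all genes and a threshold of 0.05. Over all tested genes 18.2% were called in this comparison, 9.51% higher and 8.64% lower, so the 6 RAB genes (12% of 50) are not more than the background. RAB26 and RAB24 rose, and RAB35, RAB8A, RAB7A and RAB43 fell. With hOMF exosomes 6 members rose (RAB26, RAB24, RAB4B, RAB17, RAB12 and RAB3A) and 4 fell (RAB35, RAB8A, RAB7A and RAB5C), or 20% of 50, where 23.2% of all genes were called, 11.8% higher and 11.4% lower. The 2 comparisons share the control libraries. When libraries were scaled by their totals instead of TMM factors, the split of 6 higher and 4 lower with hOMF exosomes became 10 and 3, and that of 2 and 4 with CAF exosomes became 2 and 3. With limma on log2(FPKM + 1) the splits were 9 and 3, and 2 and 1. Calls over all genes tilted as well. With library totals 67.0% of them were higher with hOMF exosomes and 63.1% with CAF exosomes. With limma on log2(FPKM + 1) these were 68.7% and 64.0%, beside 50.9% and 52.4% with TMM factors and edgeR.

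Most members differed little from control. The median log2 fold change over the 50 members was -0.08 with CAF exosomes, beside -0.01 for all tested genes, and -0.02 with hOMF exosomes, beside 0.00 for all tested genes. The median with hOMF exosomes turned to 0.03 when libraries were scaled by their totals, where that of all genes was 0.06. Apart from RAB26, the members lay between -0.48 and 0.67 in both comparisons. Ranges of CPM, counts scaled by library size with TMM factors, did not overlap with control for 17 members with CAF exosomes (36.2% of all tested genes) and for 22 with hOMF exosomes (39.5% of all tested genes).

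**Figure D2:**
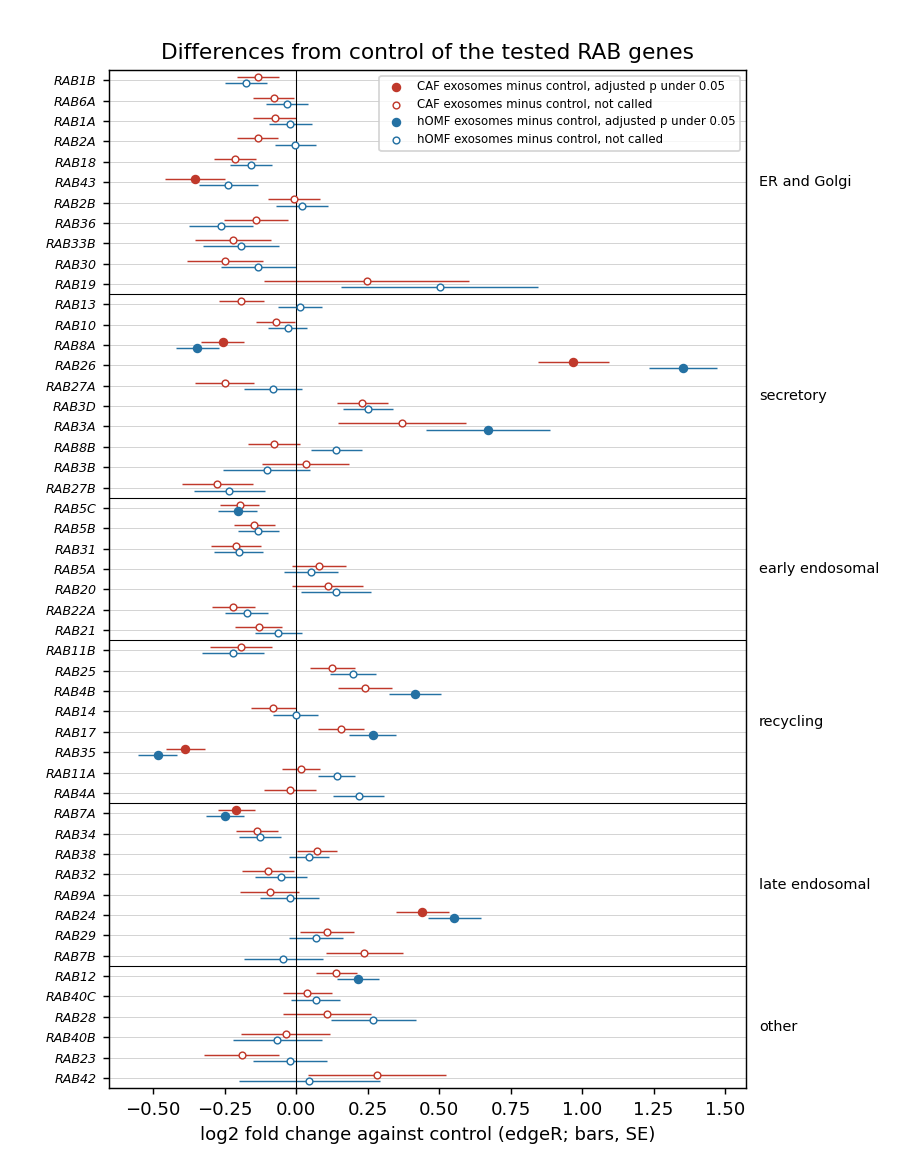
Log2 fold change against control for each of the 50 tested RAB genes with CAF exosomes (red) and hOMF exosomes (blue), with bars of 1 SE; filled points have an adjusted p under 0.05 by edgeR. RAB26 lies at 0.97 and 1.35, while RAB35 lies lowest, at -0.39 and -0.48; both comparisons use the same 3 control libraries.

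Sequence before the start of a gene was taken from RefSeq on GRCh38.p14, whose table matched 47 of the 60 members. Of the called members, the 3 shown have at least 180 bases before the RefSeq start that no exon of GENCODE release 29 covers, and they include 2 that rose with hOMF exosomes (RAB4B and RAB3A) and 1 that fell (RAB7A). Capitals mark matches, on either strand, to 7 motifs: the GC box GGGCGG, the CCAAT box CCAAT, the TATA box TATAAA, the E-box CACGTG, the E-box CATATG, the AP-1 site TGANTCA and the SREBP site TCACNCCAC.
RAB4B, plus strand, chr19:40777997-40778215: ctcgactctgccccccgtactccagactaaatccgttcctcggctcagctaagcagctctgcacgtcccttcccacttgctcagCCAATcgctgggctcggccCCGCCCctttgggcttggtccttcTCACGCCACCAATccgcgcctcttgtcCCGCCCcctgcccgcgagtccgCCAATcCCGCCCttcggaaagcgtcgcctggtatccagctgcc
RAB3A, minus strand, chr19:18204075-18204292: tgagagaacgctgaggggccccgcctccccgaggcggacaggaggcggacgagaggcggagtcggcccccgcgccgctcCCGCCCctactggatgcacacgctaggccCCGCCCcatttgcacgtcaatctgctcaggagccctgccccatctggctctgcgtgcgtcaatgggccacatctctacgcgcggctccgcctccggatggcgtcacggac
RAB7A, plus strand, chr3:128725933-128726121: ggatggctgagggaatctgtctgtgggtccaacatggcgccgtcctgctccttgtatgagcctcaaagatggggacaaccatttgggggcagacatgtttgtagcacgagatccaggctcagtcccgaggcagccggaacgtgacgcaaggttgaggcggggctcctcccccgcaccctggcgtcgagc
The stretch of RAB4B holds 3 GC boxes, 3 CCAAT boxes and 1 SREBP site, which overlaps a CCAAT box, that of RAB3A holds 2 GC boxes, and that of RAB7A holds 0 of the 7. Over the full 250 bases before the start, RAB4B, RAB3A and RAB7A hold 4, 3 and 1 GC boxes. Of the other matched members called, RAB35, RAB8A, RAB5C and RAB43, which fell, hold 2, 2, 2 and 6. RAB24 and RAB17, which rose, hold 1 and 0. Exons of GENCODE release 29 cover all 250 bases of RAB35, RAB8A and RAB17. They cover 221 of RAB24, 119 of RAB5C and 80 of RAB43. Over the 250 bases before the start, 37 of the 47 matched members (78.7%) hold a GC box, against 42.3% of 27305 promoters, and 13 (27.7%) a CCAAT box, against 33.0%. Those promoters were not filtered by gene type or expression, whereas the members are protein-coding and mostly expressed here. The 2 sets are thus unlike, and the shares do not show a trait of RAB genes. The SREBP site was in 1 member, RAB4B, and in 0.875% of all promoters. A match is only a match of letters. The stretches to show and the motifs were chosen after values were seen.

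RAB26 showed the widest difference of the family. It is a GTPase of secretory granules and synaptic vesicles. It stood at 6.19, 6.87 and 8.60 FPKM in control, 13.7, 15.4 and 14 with CAF exosomes and 20.9, 19.0 and 17.7 with hOMF exosomes. All libraries with exosomes lay above all control libraries, and the 2 exosome groups did not overlap either. The rise was 1.96-fold with CAF exosomes, a log2 change of 0.97 (SE 0.12, edgeR adjusted p = 0.000135), and 2.55-fold with hOMF exosomes, 1.35 (SE 0.12, adjusted p = 4.86e-06). Both calls held under all 21 alternatives tried. Between the exosome groups the log2 difference of CAF minus hOMF was -0.38, with a 95% interval of -0.62 to -0.15, and it did not pass the test (edgeR unadjusted p = 0.00309, adjusted p = 0.367). RAB26 (NCBI gene 25837) is protein-coding and lies on chromosome 16 from 2140803 to 2154165 on the plus strand in GRCh38, by GENCODE release 29.

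The RAB3 genes, which act in regulated exocytosis, were expressed at lower levels. RAB3A, best known for release of synaptic vesicles, stood at 2.25, 2.88 and 4.53 FPKM in control, 4.01, 4.54 and 4.26 with CAF exosomes and 6.35, 4.76 and 4.99 with hOMF exosomes. Control replicate 3 was above the other control libraries and overlapped the CAF group. The log2 change was 0.67 with hOMF exosomes (SE 0.22, edgeR adjusted p = 0.0353) and 0.37 with CAF exosomes (SE 0.22, adjusted p = 0.264). Leaving out any one of control replicates 1 and 2, hOMF exosome replicates 1 and 2 and CAF exosome replicate 3 ended the hOMF call. So did limma-voom with quantile normalization and a fit of only the 2 groups compared. The CAF value ranged from 0.18 without control replicate 1 (edgeR adjusted p = 0.609) to 0.70 without control replicate 3 (adjusted p = 0.0446, the 1 of 21 alternatives in which it passed). RAB3A shares exons with MPV17L2 on the opposite strand, and whether counting used strand is unknown, so reads of the pair cannot be told apart. MPV17L2 itself stood at -0.41 with hOMF exosomes (adjusted p = 0.0689). RAB3D, of exocrine granules, was at 0.25 (SE 0.09) with hOMF exosomes, just short of the threshold, and at 0.23 (SE 0.09, adjusted p = 0.0805) with CAF exosomes, and all of its libraries with exosomes lay above all control libraries.

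Members that carry vesicles to the cell surface went the other way or did not pass. RAB8A, which delivers Golgi-derived vesicles to the plasma membrane and the cilium, stood at 25.6, 25.3 and 25.6 FPKM in control, 21.2, 21.6 and 22.4 with CAF exosomes and 19.2, 22.8 and 20.6 with hOMF exosomes. Every library with exosomes was below every control library. It fell by 0.34 on the log2 scale with hOMF exosomes (SE 0.08, edgeR adjusted p = 0.00436) and by 0.26 with CAF exosomes (SE 0.08, adjusted p = 0.0281). The CAF call was lost on leaving out any CAF or any control library, and with limma on log2(FPKM + 1) or log2(FPKM + 0.1). Exons of HSH2D overlap RAB8A on the same strand, and HSH2D was not called (-0.04 with hOMF exosomes, adjusted p = 0.894). Its close relative RAB8B was scarcer, at a mean of 4.09 FPKM, and stood at 0.14 with hOMF exosomes (adjusted p = 0.273). RAB13, of tight junctions and the most abundant member of this class at a mean of 87.7 FPKM, stood at 87.4, 95.7 and 85.3 FPKM in control, 87.0, 76.9 and 75.2 with CAF exosomes and 97.4, 91.8 and 92.4 with hOMF exosomes. Its control and CAF ranges overlapped, and it was not called in either comparison (adjusted p = 0.0995 and 0.914).

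The pair known for exosome release did not pass the test. RAB27A stood at 8.21, 8.20 and 10.1 FPKM in control, 6.95, 7.71 and 8.15 with CAF exosomes and 7.94, 8.65 and 9.56 with hOMF exosomes. All 3 CAF libraries lay below the control libraries, narrowly, while the hOMF libraries overlapped them. The log2 change of RAB27A with CAF exosomes was -0.25, with a 95% interval of -0.47 to -0.03 (edgeR adjusted p = 0.103), and that of RAB27B was -0.27, with an interval of -0.54 to -0.01 (adjusted p = 0.139). With hOMF exosomes the values were -0.08 and -0.23 (adjusted p = 0.599 and 0.185).

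**Figure D3:**
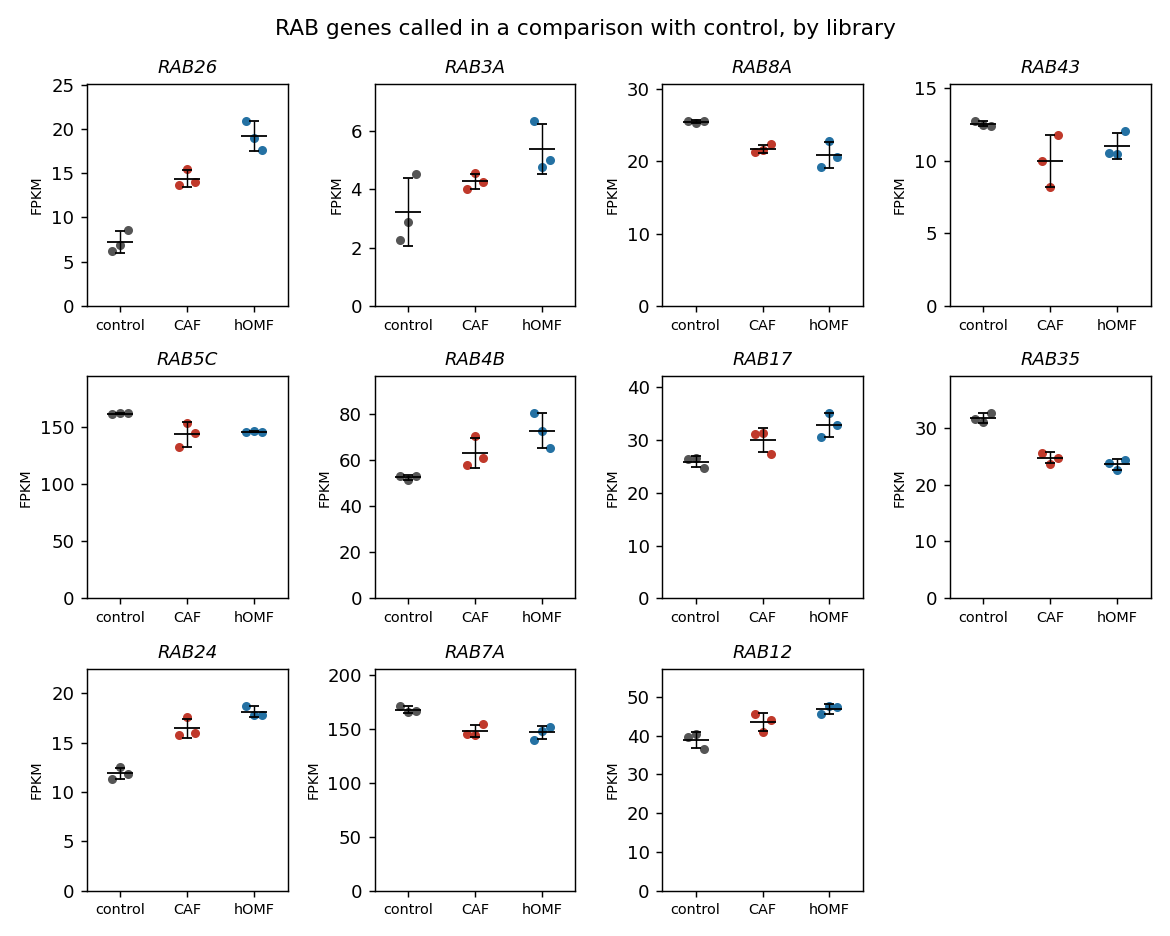
FPKM in each library of the 11 RAB genes called in at least one comparison with control, one panel a gene, with axes that start at 0; horizontal marks are group means and bars are SD (n = 3). Every gene shown except RAB3A separates all exosome libraries from all control libraries, while RAB3A overlaps between control and CAF exosomes.

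Early endosomal members, which fuse and sort incoming vesicles, mostly lay below control. RAB5C stood at 161, 162 and 162 FPKM in control, 132, 153 and 145 with CAF exosomes and 145, 146 and 145 with hOMF exosomes. The control libraries were all above the exosome libraries. RAB5C fell by 0.20 on the log2 scale with hOMF exosomes (SE 0.07, edgeR adjusted p = 0.0404). That call failed in 13 of 21 alternatives, including those without any one hOMF or control library or without CAF exosome replicate 3. With CAF exosomes its log2 value was also -0.20 (adjusted p = 0.0567). Of the 7 tested members of this class, 0 were called with CAF exosomes and 1 with hOMF exosomes (18.2% and 23.2% of all genes). At an unadjusted p under 0.05 there were 3 and 3, where all genes gave 32.8% and 36.7%. With DESeq2 the CAF value of RAB5C was called. The class median was -0.15 with CAF exosomes and -0.13 with hOMF exosomes. RAB22A and RAB31, which belong to one subfamily, stood at -0.22 and -0.21 with CAF exosomes (adjusted p = 0.0524 and 0.102), and RAB5A stood at 0.08 (adjusted p = 0.584).

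Among recycling members, which return receptors to the cell surface, some rose and one fell. RAB35, a regulator of fast recycling from the plasma membrane, stood at 31.6, 30.9 and 32.5 FPKM in control, 25.6, 23.7 and 24.8 with CAF exosomes and 23.8, 22.5 and 24.3 with hOMF exosomes. All exosome libraries lay below all control libraries. It fell by 0.39 with CAF exosomes (SE 0.07, edgeR adjusted p = 0.00147) and by 0.48 with hOMF exosomes (SE 0.07, adjusted p = 0.000173), and both calls held under all 21 alternatives. RAB35 is a minus-strand gene of chromosome 12 (start 120095095, end 120117502).

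RAB4B, of the fast recycling pathway and one of the genes whose upstream sequence is shown above, stood at 53.3, 51.4 and 53.1 FPKM in control, 58.2, 70.5 and 61.0 with CAF exosomes and 80.5, 72.9 and 65.4 with hOMF exosomes. Neither exosome group overlapped control. It rose by 0.42 with hOMF exosomes (SE 0.09, edgeR adjusted p = 0.00468), a call kept under all 21 alternatives, and stood at 0.24 with CAF exosomes (SE 0.09, adjusted p = 0.0816). Readthrough genes named MIA-RAB4B and RAB4B-EGLN2 share its exons and are not among the listed genes. Whether reads from them were counted as RAB4B cannot be checked here. Its relative RAB4A stood at 0.22 with hOMF exosomes (adjusted p = 0.0863) and -0.02 with CAF exosomes (adjusted p = 0.891).

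The epithelial members RAB17 and RAB25 lay on the same side. RAB17, known from transcytosis in polarised epithelium, stood at 26.4, 26.7 and 24.7 FPKM in control, 31.2, 31.4 and 27.4 with CAF exosomes and 30.5, 35.1 and 32.8 with hOMF exosomes. The groups did not overlap with control. It rose by 0.27 with hOMF exosomes (SE 0.08, edgeR adjusted p = 0.0260), a call lost without hOMF exosome replicate 2 or control replicate 2 or 3, and stood at 0.16 with CAF exosomes (adjusted p = 0.193). RAB25, the epithelial relative of RAB11, stood at 95.1, 92.6 and 85.6 FPKM in control, 90.9, 109 and 103 with CAF exosomes and 110, 109 and 108 with hOMF exosomes. It was not called (adjusted p = 0.0792 with hOMF exosomes). RAB11B, the most abundant member of this class, was spread widely within groups. It stood at 119, 130 and 133 FPKM in control, 98.2, 127 and 114 with CAF exosomes and 132, 110 and 98.2 with hOMF exosomes, and was not called (log2 -0.19 and -0.22, adjusted p = 0.224 and 0.151). RAB11A and RAB14 were not called either.

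Late endosomal and lysosomal members held both directions. RAB24, linked to autophagy, stood at 11.3, 12.5 and 11.8 FPKM in control, 15.8, 17.6 and 16 with CAF exosomes and 18.7, 17.8 and 17.8 with hOMF exosomes, so that every exosome library lay above every control library. It rose by 0.44 with CAF exosomes (SE 0.09, edgeR adjusted p = 0.00462) and by 0.55 with hOMF exosomes (SE 0.09, adjusted p = 0.000599), and both calls held under all 21 alternatives. RAB24 is a minus-strand gene of chromosome 5 (start 177301198, end 177303744), and exons of MXD3 overlap it on the same strand. MXD3, a transcription factor gene of the MAX network, rose too, by 0.71 (SE 0.21, adjusted p = 0.0286) and 0.70 (SE 0.21, adjusted p = 0.0263), from 7.1 ± 1.2 FPKM (SD, n = 3) in control to 11.5 ± 3.33 and 12 ± 2.81. How far the 2 genes share reads was not tested.

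RAB7A, by contrast, was lower with exosomes. It stood at 172, 165 and 167 FPKM in control, 145, 144 and 155 with CAF exosomes and 140, 148 and 152 with hOMF exosomes, with no overlap between control and either group. It fell by 0.25 with hOMF exosomes (SE 0.07, edgeR adjusted p = 0.0133), a call lost without hOMF exosome replicate 1 or 2, and by 0.21 with CAF exosomes (SE 0.07, adjusted p = 0.0375). In 14 of 21 alternatives the CAF call failed, including those without any one CAF or control library or without hOMF exosome replicate 2. RAB32 and RAB38, which are known from melanosome formation, were abundant at means of 60.0 and 73.7 FPKM, while the 4 listed melanocyte markers summed to 1.31 to 1.88 FPKM per library, with 3 of them (MLANA, DCT and MITF) under 1 FPKM in all libraries and none at 0 throughout. Neither RAB32 nor RAB38 was called (adjusted p of at least 0.488 in both comparisons). RAB9A, RAB29, RAB34 and RAB7B were not called.

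In the class of the ER and Golgi, RAB43 was the only member of 11 tested that was called, with CAF exosomes (9.09%, where 18.2% of all genes were called), and 0 were called with hOMF exosomes (23.2% of all genes). It is a Golgi RAB and stood at 12.8, 12.5 and 12.4 FPKM in control, 10.0, 8.19 and 11.7 with CAF exosomes and 10.6, 10.5 and 12 with hOMF exosomes. CAF exosome replicate 2 was the lowest and the exosome groups did not reach the control libraries. It fell by 0.35 with CAF exosomes (SE 0.10, edgeR adjusted p = 0.0282), and stood at -0.24 with hOMF exosomes (adjusted p = 0.110). Leaving out any one of replicates 1 and 2 of either group ended the CAF call, as did limma on log2(FPKM + 1) or log2(FPKM + 0.1). The table also lists the readthrough gene ISY1-RAB43, which shares exons with RAB43 and stood at 0.24 with CAF exosomes (adjusted p = 0.201), so the division of reads between the 2 is uncertain. Of the 11 members, 10 had a negative log2 value with CAF exosomes and 9 with hOMF exosomes, beside 6329 and 6171 of 12470 genes. With medians of -0.13 and -0.13, this class and the early endosomal class had the lowest medians in both comparisons.

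Outside these classes RAB12, which promotes lysosomal degradation of the transferrin receptor, was called with hOMF exosomes. It stood at 39.6, 40.4 and 36.5 FPKM in control, 45.5, 41.1 and 44.1 with CAF exosomes and 45.5, 47.7 and 47.4 with hOMF exosomes. The rise of 0.22 (SE 0.07, edgeR adjusted p = 0.0401) failed in 10 of 21 alternatives, including those without any one hOMF or control library or without CAF exosome replicate 3. With CAF exosomes it stood at 0.14 (adjusted p = 0.190).

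The share of each class in the summed FPKM of all 60 members was computed per library as a description, since it does not depend on how libraries are scaled. ER and Golgi members made up 31.2 ± 0.574% (SD, n = 3) in control, 30.5 ± 1.06% with CAF exosomes and 29.8 ± 0.559% with hOMF exosomes, most of it RAB1B. Early endosomal members made up 13.7%, 13.7% and 13.3% in control, 12.9%, 12.9% and 12.8% with CAF exosomes and 12.6%, 12.7% and 12.7% with hOMF exosomes, so that control lay above both exosome groups. Recycling members made up 19.5 ± 0.158% in control, 20.5 ± 0.924% with CAF exosomes and 21.1 ± 1.0% with hOMF exosomes, again without overlap with control. Secretory members were at 8.97 ± 0.190% in control, 9.0 ± 0.468% with CAF exosomes and 9.79 ± 0.137% with hOMF exosomes, and the CAF libraries lay on both sides of control while all hOMF libraries lay above it. Late endosomal members, at 23.0 ± 0.810%, 22.8 ± 0.0431% and 22.3 ± 0.431%, overlapped, and the other members, at 3.81 ± 0.120%, 4.32 ± 0.217% and 4.40 ± 0.123%, lay above control in all exosome libraries. With 3 libraries against 3 an exact permutation test cannot give a p below 0.1, so none was run on these shares.

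**Figure D4:**
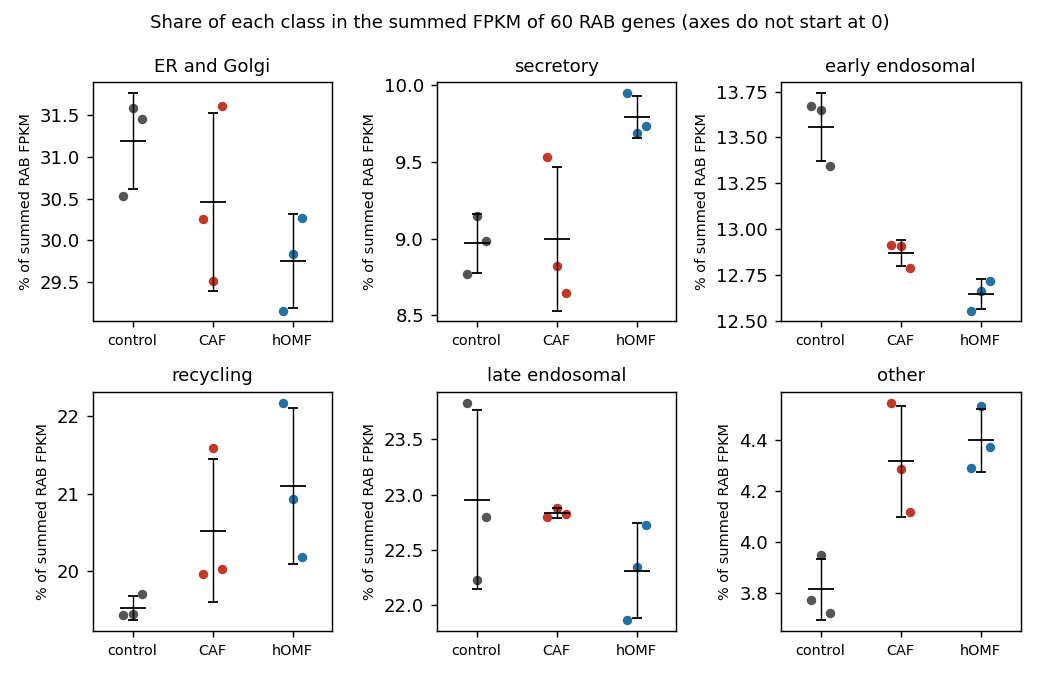
Share of each class in the summed FPKM of the 60 RAB genes, in percent, for each library (points), with group means and SD (marks and bars, n = 3); the axes do not start at 0. Early endosomal members lie at 13.3% to 13.7% in control and at 12.6% to 12.9% in the exosome libraries.

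Within families, the share of one paralog was compared by an exact two-sided permutation test for every tested member of 12 sets in 3 comparisons, 81 tests in all, of which none can pass because the smallest possible p is 0.1 (adjusted p = 0.338). RAB8A made up 86.6 ± 0.489% of RAB8 in control, 85.1 ± 0.582% with CAF exosomes and 82.1 ± 1.49% with hOMF exosomes, with no overlap between any of the 3 groups. RAB4B made up 82.7 ± 0.908% of RAB4 in control, 85.1 ± 1.0% with CAF exosomes, which did not overlap control, and 84.4 ± 2.38% with hOMF exosomes, which did. RAB5C held 68.3 ± 1.24% of RAB5 in control, 66.8 ± 2.54% with CAF exosomes and 66.8 ± 0.491% with hOMF exosomes. RAB7A held 98.3% of RAB7 in control, 97.7% with CAF exosomes and 98.0% with hOMF exosomes. RAB3A held 27.6 ± 8.26% of RAB3 in control, 30.8 ± 0.434% with CAF exosomes and 35.8 ± 3.03% with hOMF exosomes, and overlapped control in both. In the set of RAB11A, RAB11B and RAB25, RAB25 held 37.5 ± 2.36% in control, 42.1 ± 0.394% with CAF exosomes and 43.5 ± 2.69% with hOMF exosomes, without overlap with control.

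Between the exosome groups no member was called by edgeR, where 0.016% of all tested genes (2 genes) were, 0.00802% higher and 0.00802% lower with CAF exosomes. At an unadjusted p under 0.05 there were 4 members, RAB26, RAB13, RAB4A and RAB8B, each lower with CAF than with hOMF exosomes, beside 7.59% of all genes. DESeq2 also called 0 members, but it gave no adjusted p for RAB26, RAB24 and RAB3A and so could not call them. Differences of CAF minus hOMF exosomes ranged from -0.38 (RAB26) to 0.28 (RAB7B), and a miss of the threshold does not show that the groups act alike. The 95% interval was -0.37 to 0.02 for RAB4B, -0.74 to 0.14 for RAB3A and -0.30 to 0.08 for RAB24.

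The genes that control RAB proteins were counted in 4 lists, to be read against the 18.2% and 23.2% of all tested genes called with CAF and hOMF exosomes. Of 8 genes of prenylation and membrane extraction, 1 rose and 2 fell with CAF exosomes, and 2 fell with hOMF exosomes. RABIF, a RAB chaperone, fell by 0.51 (SE 0.10) with CAF exosomes and by 0.46 (SE 0.10) with hOMF exosomes. RABAC1, a receptor of prenylated RABs, rose by 0.35 (SE 0.08) with CAF exosomes. Of 39 tested GEF genes, 1 rose and 3 fell with CAF exosomes (10.3% called) and 3 rose and 3 fell with hOMF exosomes (15.4%), both below the share over all genes. DENND6B rose in both, by 0.41 (SE 0.11) and 0.37 (SE 0.11), and RIN3, a GEF of the RAB5 family, fell in both, by 0.35 (SE 0.10) and 0.34 (SE 0.10).

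Of 31 tested GAP genes, 3 rose and 1 fell in each comparison with control (12.9% called, where all genes gave 18.2% and 23.2%). TBC1D2, a GAP of RAB7, rose from 60.6 ± 0.962 FPKM (SD, n = 3) in control to 83.9 ± 8.28 with CAF exosomes and 92.7 ± 10.8 with hOMF exosomes, log2 changes of 0.37 and 0.51 (edgeR adjusted p = 0.00391 and 0.000275). Of 44 tested effectors, 3 rose and 4 fell with CAF exosomes (15.9% called) and 7 rose and 4 fell with hOMF exosomes (25.0%), both near the share over all genes. SYTL1, a synaptotagmin-like protein that binds RAB27, rose from 27.6 ± 1.68 FPKM in control to 42.6 ± 5.02 and 47.1 ± 6.25, log2 changes of 0.61 (SE 0.11) and 0.71 (SE 0.11). MICALL1, an effector of recycling endosomes, fell by 0.36 (SE 0.07) and 0.42 (SE 0.07). The list medians lay between -0.12 and 0.07, and 0 members were called between the exosome groups (edgeR), where the share called over all genes was 0.016%.

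The GC content of the longest transcript was computed, since it and transcript length can bias counts. The 6 members called higher in a comparison with control ranged from 45.5% (RAB12) to 61.2% (RAB26) with a median of 57.3%, and the 5 called lower from 47.5% (RAB7A) to 61.8% (RAB43) with a median of 55.8%, against 46.4% for all 50 tested members and 48.5% for all tested genes. Both directions thus lay above the family's median. After libraries were corrected for these 2 properties, GC content and length, every called member kept its call. The counts became 4 higher and 8 lower with CAF exosomes and 8 and 9 with hOMF exosomes, or 12 and 17 of 50. Calls over all genes rose too, from 2264 and 2896 to 3100 and 3670 of 12470.

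The 10 members with too few counts were RAB6B, RAB6C, RAB6D, RAB15, RAB33A, RAB37, RAB39B, RAB40A, RAB41 and RAB44. These 3 genes were picked after their values were seen: control replicate 3 held 36 counts of RAB44, 19 of RAB6B and 10 of RAB37, where the other 8 libraries held 0 to 3, 1 to 4 and 0 to 1. The leukocyte markers summed to 44.5 FPKM in that library and to 28.9 to 33.6 in the others. The other 7 untested members had 0 to 11.4 counts in a library. RAB6C and RAB6D resemble RAB6A closely, and RSEM divides reads among such copies, so their counts are uncertain.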

How the data were processed

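RNA-seq of 9 Cal-27 libraries was analysed from 1 table with expected counts, FPKM and TPM per library, and the authors' group means, which were not used. The submitters' processing notes list RSEM 1.2.8 along with Bowtie2 2.2.5. The expected counts deposited by the authors are thus estimates that divide reads among similar genes. The notes name a mouse build although the gene identifiers are human, so no coordinates were taken from the table. Annotation and strand setting: not given in the sources used here. Deposited FPKM values are scaled by length and depth, and deposited TPM values, scaled to a fixed sum, served only as an alternative for paralog shares. Columns were matched to samples by name, and 0 were left without a sample or group.

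Expected counts (between 90.5% and 92.0% of the values of a library whole to within 0.001) were rounded. Genes were kept by filterByExpr (minimum count 10, total 15), scaled by TMM and tested by the quasi-likelihood method of edgeR on all 9 libraries together, with group as the only term (6 residual degrees of freedom), two-sided, with adjusted p-values (Benjamini-Hochberg, 12470 genes) called under 0.05. SE was computed from the fold change and the F statistic, and intervals cover 95%. The fit was tried on simulated data, in which 100 genes changed by 0.5 and 100 by 1 on the log2 scale between CAF exosomes and control. It recovered 69% and 88% of them, and 4.27% of its calls were false. Far fewer genes changed there than were called in these data, and changes under 0.5 were not simulated. Gene coordinates came from GENCODE release 29, matched by NCBI gene identifier for 60 of 60 members, and GC content and length of the longest transcript were available for 99.1% of tested genes. The 21 alternatives were DESeq2, RLE factors, no TMM factors, limma-voom with and without quantile normalization, limma on log2(FPKM + 1) and log2(FPKM + 0.1), 2 other filters, the replicate number as a block, a GC and length correction, fits of only the 2 groups compared, and leaving out each of 9 libraries.

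The members, classes and lists were chosen with earlier results of these data known. Values in every library were given for each called member and for the most abundant member of each class, and in each list of RAB regulators up to 3 called genes with the smallest p could be named, of which 1 result is not reported here; RAB25, RAB27A and other uncalled members were chosen as paralogs or for their known role, outside that rule and with their values seen. The promoter stretches and motifs, the 5 paralog shares carried through the alternatives, the genes compared between the exosome groups and the 3 genes singled out for control replicate 3 were chosen after values were seen. Stretches were limited to those free of exons. Software was edgeR 4.0.16 and DESeq2 1.42.0 with limma 3.58.1 in R 4.3.3, and matplotlib 3.10.9 in python 3.11.15.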

Additional observations from a re-analysis of the deposited data

How the results depend on the processing

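RAB26, RAB24 and RAB35 kept their calls against control in both comparisons under all 21 alternatives, as did RAB4B and RAB8A with hOMF exosomes, so that 3 of the 6 calls with CAF exosomes and 5 of the 10 with hOMF exosomes did not depend on any alternative run. No called member changed direction. With CAF exosomes, the 4 lower members became 1 with limma on log2(FPKM + 1) or log2(FPKM + 0.1), 8 with the GC and length correction and 1 to 4 on leaving out a library, and the 2 higher members became 4 with that correction and 2 to 3 on leaving out a library. With hOMF exosomes, the 6 higher members became 10 without TMM factors and 3 to 7 on leaving out a library, and the 4 lower members became 9 with the GC and length correction and 2 to 5 on leaving out a library. Calls of all genes moved too, to 3100 with CAF exosomes and 3670 with hOMF exosomes under the GC and length correction. Without TMM factors 67.0% of the calls of all genes with hOMF exosomes were higher. The cause was not tested. Over all genes, the 2264 calls with CAF exosomes became 1343 without CAF exosome replicate 3, 1389 without control replicate 2 and 1442 without control replicate 3, and the 2896 with hOMF exosomes became 1695 without hOMF exosome replicate 2. Calls between the exosome groups, 2 genes, became 32 with DESeq2, 19 with the GC and length correction, 3 without a filter on low counts and 0 to 8 on leaving out a library. They were 0 without TMM factors, with limma, with a mean CPM of at least 1 and with only these 2 groups in the fit. The RAB3A share of RAB3, higher by 3.21 percentage points with CAF exosomes, turned to -0.782 without control replicate 1, and leaving out 1 library gave -0.782 to 7.47.

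Replicate numbers recur in the 3 groups. Deviations from the group mean correlated at -0.154 to 0.140 over the 9 same-numbered pairs and at -0.143 to 0.181 over the others. The same number thus did not go with higher correlations, and 4 of 9 libraries correlated best with their own number. The fit with the replicate number as a block called 2 higher and 3 lower members with CAF exosomes, 5 and 3 with hOMF exosomes and 0 between the exosome groups. At this depth, members such as RAB19, with 129 counts over all 9 libraries, have wide intervals.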
